A study of Homo sapiens with 18 samples.

Results

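The oxidative phosphorylation subunit genes encode the proteins of the respiratory chain and of ATP synthase. They were taken from the counts table by gene symbol, as the NDUFA, NDUFB, NDUFC, NDUFS and NDUFV genes (complex I), SDHA to SDHD (complex II), the UQCR genes (complex III), the nuclear COX subunit genes of the widely used isoforms (complex IV), the ATP5F1, ATP5M and ATP5P genes (complex V) and the protein genes of mitochondrial DNA. This gave 88 of the 58815 genes in the table. Of these, 75 are nuclear and 13 are mitochondrially encoded. NDUFA4 is counted with complex IV, as its protein is a subunit of that complex. RNA was sequenced from LM2, BrM and BoM cells, which are derivatives of the human triple-negative breast cancer line MDA-MB-231 with lung, brain and bone metastatic activity. Each line carried a DOX-inducible hairpin, either shCtrl or shWDR5, and all groups were kept for 3 days in DOX (1 μg/mL). The 6 combinations of line and hairpin had 3 libraries each, 18 together. A single WDR5 hairpin was used, each line is 1 derivative of 1 patient's tumor line, and the replicates were harvested at different passages, so the p-values measure the spread between cultures of the same cells.

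Oxidative phosphorylation passes electrons from NADH and succinate through complexes I to IV to oxygen, and complex V makes ATP from the proton gradient that results. The complexes are built from the products of both genomes. Mitochondrial DNA is transcribed as long precursors that are cut into 2 ribosomal RNAs, transfer RNAs and the mRNAs of 13 core subunits, whereas all other subunits are nuclear genes, translated in the cytosol and imported. WDR5 is a nuclear scaffold protein of chromatin complexes and is not part of the respiratory chain.

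The libraries held 17485841 to 119667013 counts. WDR5 itself was lower in every shWDR5 library, at 14 to 24.4 CPM (read counts scaled to library size, with edgeR's TMM factors) against 79.4 to 134 CPM in the shCtrl libraries. Its log2 fold change was -2.43 ± 0.14 (SE) in LM2, -1.97 ± 0.14 in BrM and -2.24 ± 0.14 in BoM. The lines expressed VIM, CD44, CAV1 and EGFR at 375 CPM or more in every library, with ESR1 at most at 0.537 CPM and PGR at most at 0.715 CPM. ERBB2 was at 41.5 to 83.4 CPM, KRT8 and KRT18 at 194 to 501 CPM and SPARC at 1.06 to 405 CPM. Among markers of other cells, GFAP (astrocytes) reached 9.98 CPM, PECAM1 (endothelium) 4.67 CPM and PTPRC (leukocytes) 1.06 CPM. VWF, CD3E, ALB, BGLAP and SFTPC were at most at 0.619 CPM.

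A pair of libraries stood apart in the subunit genes. Of the 72 nuclear members that passed the expression filter, 48 reached their highest CPM among the 6 LM2 libraries in shWDR5 replicate 3, and 51 reached their highest CPM among the 6 BoM libraries in shWDR5 replicate 3. These are 66.7% and 70.8% of the members, whereas 21.5% and 20.7% of all 12095 tested genes peaked in the same libraries. In BrM no library held more than 20 of the 72 members' highest values. The nuclear members took 1.03% of all counts in the third shWDR5 library of BoM and 0.870% in that of LM2, and 0.708% to 0.862% in the other 16 libraries. Results for the subunit genes and the mitochondrial ribosomal RNAs that rest on these libraries are given with and without them. That setting was chosen after seeing the data. Both are shWDR5 libraries picked because the nuclear members were high in them, so leaving them out lowers the members' fold changes by construction. Averages of assembly factors, regulators and other related genes, and the medians by complex, are given with all libraries only.

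**Figure D1:**
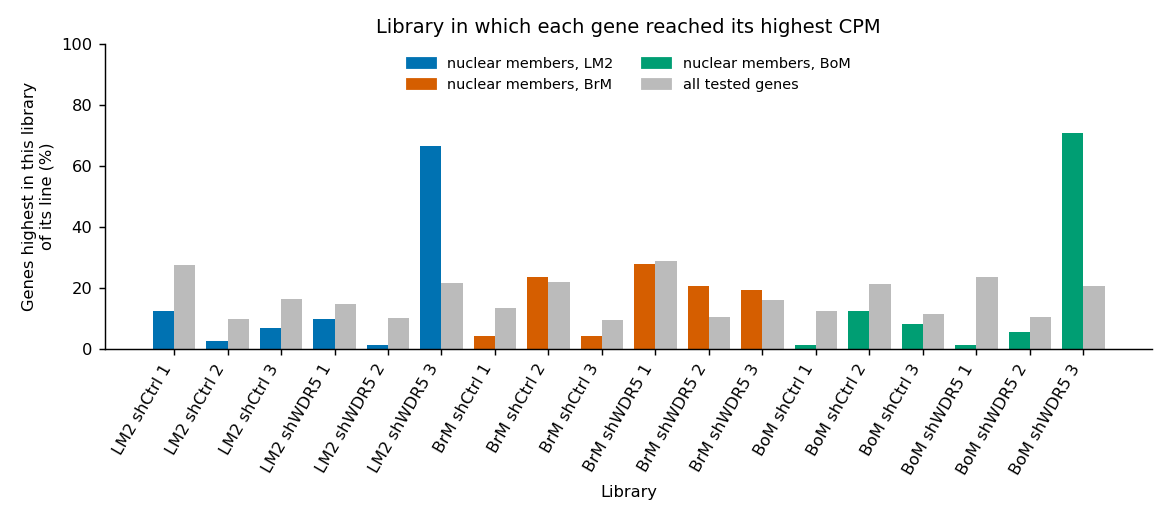
Share of genes (y axis, %) that reached their highest CPM within their line in each library (x axis), for the 72 nuclear members that passed the filter (coloured by line) and all 12095 tested genes (grey). The shWDR5 replicate 3 libraries of LM2 and BoM hold 66.7% and 70.8% of the members' highest values, against 21.5% and 20.7% for all tested genes.

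Of the 88 members, 85 passed the filter, which required a normalized count of at least 145 in some library. The other 3 were complex I genes. NDUFA13 lay at 0.770 to 2.08 CPM, NDUFV2 at 1.14 to 3.08 CPM and NDUFA7 at 0.0993 to 0.591 CPM. Stretches of 50 bases shared with other annotated genes made up 82.4%, 89.4% and 75.9% of their main transcripts, so their counts are uncertain. The same holds for some members that passed, among them SDHA (73.6%), NDUFB8 (73.0%), NDUFA11 (65.4%) and ATP5PO (61.2%). Per kilobase of transcript, every mitochondrially encoded member was above every nuclear member that passed. The mean CPM per kilobase ran from 1146 (MT-ND6) to 11082 (MT-CO2) for the 13 mitochondrial mRNAs, with a median of 2484, and reached 571 at most among nuclear members (ATP5F1B, median 71.6).

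To ask whether WDR5 knockdown alters the subunit genes, the shWDR5 libraries were set against the shCtrl libraries of the same line, and the 3 differences were averaged, with edgeR's quasi-likelihood test and an adjusted p under 0.05 for a call. In the average, 11 nuclear members rose and 3 fell, out of 85 tested, and the changes were small, between -0.34 and 0.45 on the log2 scale. Complex V held 5 of the genes that rose (ATP5F1A, ATP5F1B, ATP5F1E, ATP5MC1, ATP5MD), complex I held 4 (NDUFB9, NDUFB10, NDUFS1, NDUFS4), and complexes III and IV held 1 each (UQCRH, COX5A). NDUFA9 of complex I, SDHC of complex II and ATP5PO of complex V fell. None of the 13 mitochondrially encoded members was called. Of all tested genes, 35.5% were called in the average, 15.6% higher and 19.9% lower, whereas of the nuclear members 15.3% were called higher and 4.17% lower. The share that rose was thus near the background, and the share that fell was below it. The nuclear members had a larger within-group spread, with a median SD of log2 CPM of 0.226 against 0.171 for all tested genes. A larger spread makes a call less likely, so these shares do not compare the responses alone. In RNA from whole cultures, fewer cells of a state and less RNA per cell cannot be told apart. The median log2 fold change was 0.07 for the nuclear members, -0.01 for the mitochondrially encoded members and 0.00 for all tested genes.

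The balance of higher and lower calls differed with and without the shWDR5 replicate 3 libraries of LM2 and BoM. These were picked because the nuclear members were high in them, so the direction of this shift followed from the choice. Without both, 8 members rose and 7 fell, all nuclear (11.1% and 9.72% of 72, against 16.2% and 20.6% of all tested genes in the same fit), and the median of the nuclear members turned to -0.04. ATP5MC1, COX5A and NDUFS4 were no longer called, while NDUFB5, NDUFB6, NDUFB8 and NDUFC2, all complex I genes, were called lower in addition. Without the third shWDR5 library of BoM alone the median was 0.00, and without the first shWDR5 library of BoM 17 members rose. The share of all tested genes that rose in the latter fit is not given.

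**Figure D2:**
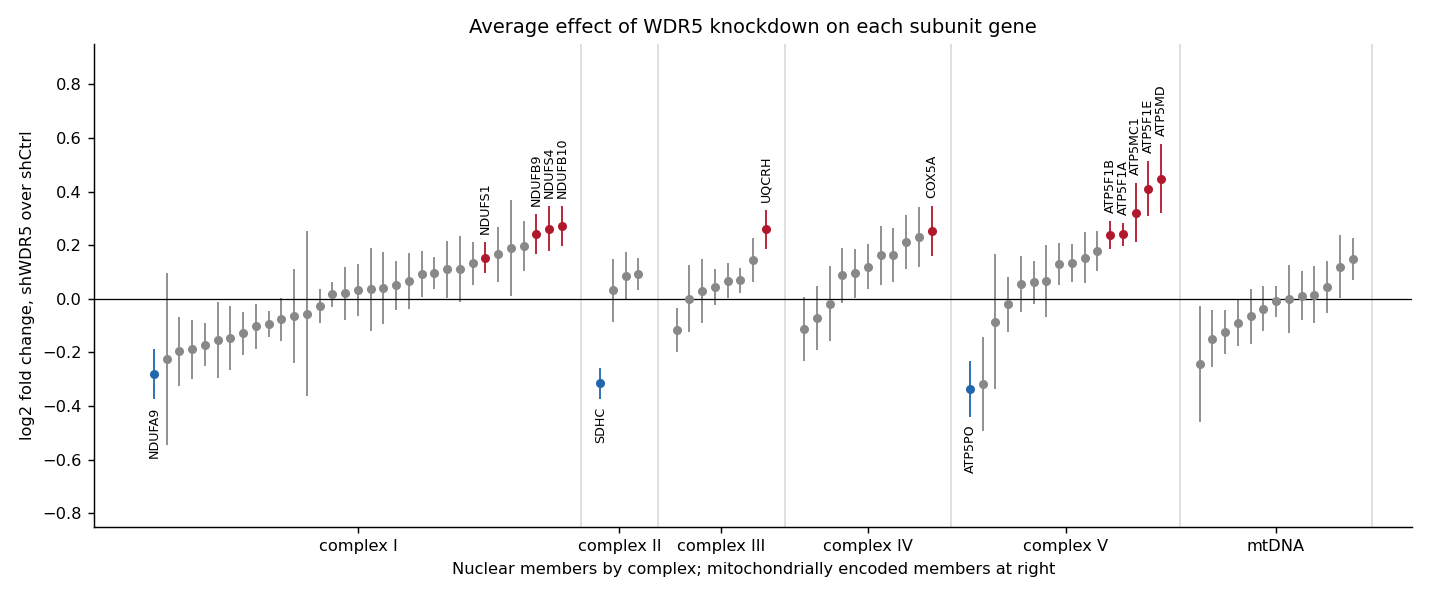
Log2 fold change of shWDR5 over shCtrl, averaged over LM2, BrM and BoM (y axis, bars are SE), for the 85 tested members ordered within each complex, with the mitochondrially encoded members (mtDNA) at right. The 11 members called higher are red, the 3 called lower are blue and the others are grey. The largest rise is that of ATP5MD at 0.45.

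The F1 sector of complex V is the catalytic head that makes ATP, and its alpha, beta and epsilon subunit genes rose. ATP5F1A (chr18:46080248-46104334, minus strand, hg38), which encodes the alpha subunit, was at 604, 553 and 551 CPM in LM2 shCtrl and at 706, 662 and 662 CPM in LM2 shWDR5. It was at 536, 536 and 537 CPM in BrM shCtrl against 600.3, 653 and 651 CPM in BrM shWDR5, and at 567, 576 and 607 CPM in BoM shCtrl against 627, 714 and 709.9 CPM in BoM shWDR5. In each line all 3 shWDR5 libraries lay above all 3 shCtrl libraries. Overlap after knockdown is described for members called from these same libraries, so groups that are apart are no further support. The share of all tested genes with groups apart was not computed. ATP5F1A rose by 0.24 ± 0.04 (SE, adjusted p = 0.000351 by edgeR's quasi-likelihood test), which is 18.1%. It was also called in BrM (0.24 ± 0.07, adjusted p = 0.0434 by edgeR) and in BoM (0.23 ± 0.07, adjusted p = 0.0445 by edgeR), but these calls were lost in 12 and 15 of 18 fits with 1 library removed. In LM2 its log2 fold change was 0.25 without a call.

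ATP5F1B (chr12:56638175-56645984) encodes the catalytic beta subunit. It was at 906, 862 and 879 CPM in LM2 shCtrl and at 1083, 1039.8 and 1048 CPM in LM2 shWDR5, so the LM2 groups did not overlap. In BrM the shCtrl libraries held 873, 897 and 877 CPM and the shWDR5 libraries 883, 1123 and 1139 CPM, with the first shWDR5 library inside the shCtrl range. In BoM the shCtrl libraries held 968, 982 and 1049.9 CPM against 1048, 1197 and 1210.5 CPM. Its average was 0.24 ± 0.05 (SE, adjusted p = 0.00196 by edgeR).

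ATP5F1E (chr20:59025475-59032345), the epsilon subunit gene, was at 244, 228 and 248 CPM in LM2 shCtrl against 299.7, 301 and 378 CPM in LM2 shWDR5, and at 241, 265 and 248 CPM against 324, 317 and 315 CPM in BrM. In BoM it was at 231, 309.7 and 259 CPM against 257, 322 and 511 CPM. The groups were apart in LM2 and BrM and overlapped in BoM, where the third shWDR5 library was far above the other 5. The average was 0.41 ± 0.10 (SE, adjusted p = 0.00485 by edgeR), and it was 0.26 ± 0.06 without the shWDR5 replicate 3 libraries of LM2 and BoM. An antisense gene covers 32.7% of its exons, and whether counting used the strand is not stated, so its reads may include that gene's. The other F1 genes were not called. ATP5F1C, the gamma subunit gene, had a log2 fold change of 0.18 ± 0.07, and ATP5F1D, the delta subunit gene, had -0.09.

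**Figure D3:**
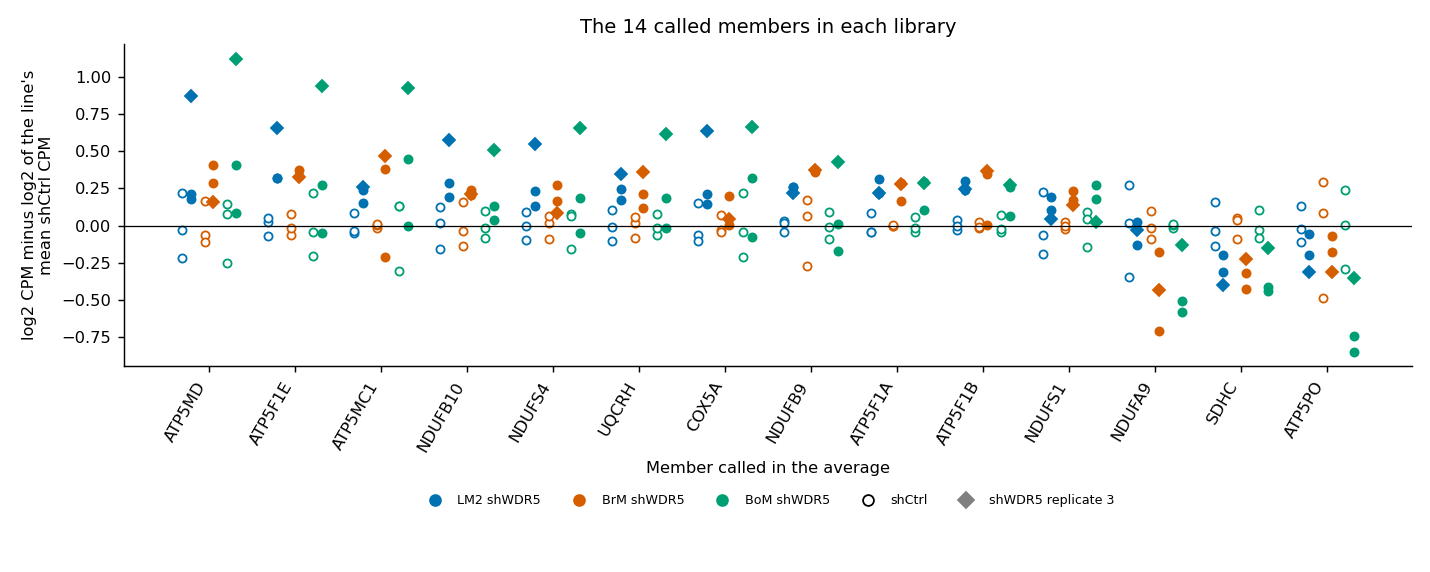
Log2 CPM of each library minus the log2 of its line's mean shCtrl CPM (y axis) for the 14 members called in the average (x axis), with shCtrl as open circles, shWDR5 as filled symbols and shWDR5 replicate 3 as diamonds. In ATP5F1A and SDHC the 3 shWDR5 libraries of each line lie on 1 side of the shCtrl libraries, and in ATP5MD, ATP5F1E and ATP5MC1 the third shWDR5 library of BoM is the highest.

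Outside F1, ATP5MD (chr10:103389041-103396492), a small accessory subunit gene of the membrane part also named ATP5MK, had the largest average at 0.45 ± 0.13 (SE, adjusted p = 0.0116 by edgeR). It was at 73.9, 54.7 and 62.3 CPM in LM2 shCtrl against 71.9, 73.8 and 116 CPM in LM2 shWDR5, at 89.6, 86.7 and 105 CPM against 124, 114 and 105 CPM in BrM, and at 83.6, 105 and 109.9 CPM against 105, 131 and 216 CPM in BoM. The groups overlapped in every line, and without the shWDR5 replicate 3 libraries of LM2 and BoM the average was 0.25 ± 0.08. ATP5MC1 (chr17:48892765-48895871), 1 of the genes of the proton-carrying c ring, had an average of 0.32 ± 0.11 (SE, adjusted p = 0.0308 by edgeR). This call was lost without BoM shCtrl replicate 1, BoM shWDR5 replicate 3 (0.23), BrM shWDR5 replicate 2 or 3, LM2 shCtrl replicate 2 or LM2 shWDR5 replicate 1.

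ATP5PO (chr21:33903453-33915814) encodes the stalk subunit that ties F1 to the membrane part, and it went the other way. It was at 18.3, 15.6 and 12.6 CPM in BoM shCtrl and at 9.26, 8.60 and 12.1 CPM in BoM shWDR5, which did not overlap. In LM2 the values were 16.9, 18.8 and 15.9 CPM against 15, 16.5 and 13.8 CPM, and in BrM 17.9, 20.7 and 12.1 CPM against 16.1, 14.9 and 13.6 CPM, with overlap in both lines. It fell by 0.34 on the log2 scale in the average (SE 0.10, adjusted p = 0.0179 by edgeR) and by 0.64 in BoM (SE 0.18, adjusted p = 0.0239 by edgeR). Exons of another gene on the same strand cover 63.8% of its transcript, so its counts are uncertain.

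The genes that rose in complexes I, III and IV encode accessory and core subunits. UQCRH (chr1:46303698-46316776), the hinge subunit gene of complex III, was at 140.3, 132 and 152 CPM in LM2 shCtrl against 159, 168 and 180.1 CPM in LM2 shWDR5, and at 225, 232 and 209.9 CPM against 242, 257 and 285 CPM in BrM. In BoM it was at 189, 208 and 195 CPM against 195, 225 and 303 CPM. The groups were apart in LM2 and BrM. It rose by 0.26 ± 0.07 (SE, adjusted p = 0.00953 by edgeR), and by 0.18 ± 0.05 without the shWDR5 replicate 3 libraries of LM2 and BoM. The near copy UQCRHL shares sequence with it, and 33.4% of the 50-base stretches of UQCRH lie in other genes.

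NDUFB10 (chr16:1959538-1961975), an accessory subunit gene of the membrane arm of complex I, rose by 0.27 ± 0.07 (SE, adjusted p = 0.00866 by edgeR), and its groups were apart in LM2 and BrM. Without the shWDR5 replicate 3 libraries of LM2 and BoM it was at 0.18 ± 0.06. NDUFB9 (chr8:124539101-124580648), another membrane arm gene, was at 25.2, 23.9 and 25 CPM in LM2 shCtrl against 29.5, 29.6 and 28.7 CPM in LM2 shWDR5, and at 47.4, 50.9 and 37.5 CPM against 58.0, 58.6 and 58.6 CPM in BrM. Its BoM libraries overlapped, at 32.6, 35.0 and 30.8 CPM against 29.2, 33.1 and 44.1 CPM. The average was 0.24 ± 0.07 (SE, adjusted p = 0.0183 by edgeR), and 0.18 ± 0.06 without the shWDR5 replicate 3 libraries of LM2 and BoM. Exons on the opposite strand cover 23.9% of the NDUFB9 transcript, so its reads may include those of another gene.

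NDUFS4 (chr5:53560633-53683338), an accessory subunit gene of the matrix arm that is mutated in Leigh syndrome, had an average of 0.26 ± 0.08 (SE, adjusted p = 0.0224 by edgeR). COX5A (chr15:74919791-74938083), a nuclear subunit gene of cytochrome c oxidase, had 0.25 ± 0.09 (SE, adjusted p = 0.0434 by edgeR). NDUFS1 (chr2:206114817-206159509), which encodes the largest iron-sulfur subunit of complex I, had 0.15 ± 0.06 (SE, adjusted p = 0.0492 by edgeR). It is the 11th gene that rose and is named outside the naming rule, chosen after its value was seen. COX5A lost its call in 12 of 18 fits with 1 library removed and was at 0.13 without the shWDR5 replicate 3 libraries of LM2 and BoM. NDUFS1 kept its call in 4 of the 18, and exons on the opposite strand cover 12.1% of its transcript.

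SDHC (chr1:161314381-161363206) encodes a membrane anchor of succinate dehydrogenase. Among the members called in the average, it was the gene that fell in all lines without overlap. Of its 50-base stretches, 16.1% lie in other genes. It was at 119, 104 and 97.2 CPM in LM2 shCtrl against 93.0, 86.1 and 81.2 CPM in LM2 shWDR5. It was at 109, 98.9 and 108 CPM against 78.5, 84.6 and 90.2 CPM in BrM, and at 88.5, 85.2 and 96.9 CPM against 66.5, 67.6 and 81.4 CPM in BoM. It fell by 0.32 on the log2 scale in the average (SE 0.06, adjusted p = 0.000496 by edgeR), a change of -19.6%, and by 0.33 in BoM (SE 0.10, adjusted p = 0.0356 by edgeR). The other 3 complex II genes were not called, with log2 fold changes from 0.03 to 0.09.

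NDUFA9 (chr12:4649095-4694317), an accessory subunit gene at the junction of the arms of complex I, was at 8.59, 8.70 and 8.77 CPM in BoM shCtrl against 5.80, 6.12 and 7.93 CPM in BoM shWDR5, and at 7.48, 8.09 and 7.09 CPM against 4.62, 6.68 and 5.59 CPM in BrM. These groups were apart. In LM2 it was at 9.98, 8.36 and 6.50 CPM against 7.57, 8.43 and 8.11 CPM, and the groups overlapped. It fell by 0.28 on the log2 scale in the average (SE 0.09, adjusted p = 0.0274 by edgeR). The call was lost with weaker filters on low counts and in 4 of 18 fits with 1 library removed, those without the first or second shWDR5 library of BoM, the second shCtrl library of BrM or the first shWDR5 library of LM2.

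The promoters of members that moved were read from RefSeq (GRCh38.p14), to show the sequence in front of genes that rose and of a gene that fell. Windows were found for 63 of the 75 nuclear members, among them 9 that rose and 2 that fell, and the letters were searched on both strands in the 250 bases before to 50 after each start. CCGGAAG, the core bound by ETS factors such as GABPA, was in 29.3% of the members' 75 windows and in 10.3% of all 35116 windows. TGCGCA, the core of the NRF1 site, was in 28.0% and 8.24%, AAGATGG, the core of the YY1 site, in 25.3% and 5.84%, and the E-box CACGTG in 9.33% and 7.26%. The windows of the members that rose held the ETS core in 4 of 11 cases and the NRF1 core in 0 of 11, and the windows of members not called held them in 17 and 20 of 59. The YY1 core was in 1 of 11 windows of members that rose, 2 of 2 that fell and 15 of 59 not called, and the E-box in 1 of 11, 0 of 2 and 5 of 59. The 250 bases before the start of UQCRH (chr1:46303448-46303697, plus strand) and ATP5MD (chr10:103396476-103396725, minus strand), which rose, and of NDUFA9 (chr12:4648864-4649113, plus strand), which fell, follow in the direction of transcription, with any of these 4 motifs in capitals.
UQCRH: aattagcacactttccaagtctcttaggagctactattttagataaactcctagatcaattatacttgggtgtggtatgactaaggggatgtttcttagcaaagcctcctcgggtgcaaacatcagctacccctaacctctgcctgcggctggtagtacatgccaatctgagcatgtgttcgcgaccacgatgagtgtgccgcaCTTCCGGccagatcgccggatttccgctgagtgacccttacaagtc
ATP5MD: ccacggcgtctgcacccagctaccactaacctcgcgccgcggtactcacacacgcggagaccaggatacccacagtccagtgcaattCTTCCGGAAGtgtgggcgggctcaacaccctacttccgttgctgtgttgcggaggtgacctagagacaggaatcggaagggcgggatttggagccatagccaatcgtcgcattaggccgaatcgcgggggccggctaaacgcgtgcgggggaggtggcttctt
NDUFA9: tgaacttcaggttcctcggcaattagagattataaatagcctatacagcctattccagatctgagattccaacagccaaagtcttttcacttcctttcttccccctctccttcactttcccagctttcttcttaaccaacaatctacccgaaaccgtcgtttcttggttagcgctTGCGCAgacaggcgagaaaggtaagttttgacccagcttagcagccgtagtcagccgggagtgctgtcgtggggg
The ETS core occurs once in the printed bases of UQCRH and in both directions, overlapping, in those of ATP5MD, and the NRF1 core occurs once in those of NDUFA9. NDUFA9 and ATP5PO, the windows of members that fell, also held the YY1 core, in the 50 bases after the start that are not printed. The windows nearest the gene start of ATP5F1A, ATP5F1E, ATP5MC1, COX5A, NDUFB10, NDUFS4 and ATP5PO held none of these motifs before the start. A match in every printed window thus does not describe the members that moved. A match of letters is a description of the sequence and not a binding site.

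Within single lines few members were called. In LM2, 0 of 85 were called by edgeR, where 6.25% of all tested genes were (1.48% higher, 4.77% lower), with 7 members at an unadjusted p under 0.05, where 20.1% of all tested genes were, and 2 called higher by DESeq2. In BrM, 1 was called (ATP5F1A), against 10.8% of all tested genes (2.89% higher, 7.92% lower). In BoM, 3 were called (ATP5F1A higher, SDHC and ATP5PO lower), against 16.1% of all tested genes (5.42% higher, 10.7% lower). The share of nuclear members with a log2 fold change above 0 in all 3 lines was 47.2% (34 of 72), and 19.4% (14 of 72) were below 0 in all 3. Over all tested genes these shares were 35.0% and 33.5%. Without the shWDR5 replicate 3 libraries of LM2 and BoM, 20.8% (15 of 72) of the nuclear members were above 0 in all 3 lines and 34.7% (25 of 72) below 0. Over all tested genes the shares were then 34.2% and 35.8%. As these libraries were picked for their high nuclear members, the direction of this shift also followed from the choice. Without the first shWDR5 library of BoM 9 members rose and 1 fell in that line, and without the first or the second shCtrl library or the second shWDR5 library of BoM 0 fell there. The shares of all tested genes called in these fits are not given. SDHC lost its BoM call without any 1 of the 3 shCtrl libraries or the first or the second shWDR5 library of BoM, and ATP5PO without the first or the second library of either BoM group. By complex, the median log2 fold change of the nuclear members in the average was 0.03 for complex I, 0.06 for complex II, 0.06 for complex III, 0.12 for complex IV and 0.13 for complex V. These medians include the shWDR5 replicate 3 libraries of LM2 and BoM and are not given without them. The median of all nuclear members was -0.04 without those libraries.

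No member responded differently in 1 line than in another by the test of the difference itself. For each pair of lines 0 of 85 members were called by edgeR and by DESeq2, and 0 had an unadjusted p under 0.05, where 5.18% (BoM against LM2), 2.94% (BrM against LM2) and 2.9% (BoM against BrM) of all tested genes did. Of all 12095 tested genes 0 were called for BoM against LM2, and 0.00827% (1 gene) for each of the other pairs. The smallest p-values belonged to ATP5PO, whose response in BoM was lower than in LM2 by a log2 difference of -0.46 ± 0.25 (SE) and lower than in BrM by -0.45 ± 0.25, to NDUFA9, lower in BoM and in BrM than in LM2 by -0.37 ± 0.23 and -0.38 ± 0.23, to SDHA, lower in BrM than in LM2 by -0.42 ± 0.28, and to NDUFC2, higher in BoM than in BrM by 0.38 ± 0.20. Standard errors of this size leave differences of this size undetected.

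The 13 mRNA genes of mitochondrial DNA took 4.85 ± 0.16% of all counts in LM2 shCtrl and 4.53 ± 0.50% in LM2 shWDR5 (SD, n = 3 each), 4.67 ± 0.23% and 4.35 ± 0.60% in BrM, and 5.56 ± 0.99% and 4.94 ± 0.40% in BoM. The mean was lower with shWDR5 in each line and the groups overlapped in each, with a two-sided exact permutation p of 0.4 in every line, where 0.1 is the smallest that 3 against 3 libraries allow. None of the 13 was called by edgeR or DESeq2 in any line or in the average, and none had an unadjusted p under 0.05 by edgeR, where 20.1% of all tested genes did in LM2, 25% in BrM, 30.3% in BoM and 44.8% in the average. The 13 had a median within-group SD of log2 CPM of 0.233, against 0.171 for all tested genes, and a larger spread makes a call less likely. As they are cut from shared precursors, they are also not independent observations. The averages ran from -0.24 ± 0.22 (SE) for MT-ATP8 to 0.15 ± 0.08 for MT-ND1. The core complex I genes MT-ND2, MT-ND3, MT-ND4, MT-ND4L, MT-ND5 and MT-ND6 had averages of 0.04, 0.12, -0.06, 0.01, 0.02 and 0.00. The catalytic oxidase genes MT-CO1, MT-CO2 and MT-CO3 had -0.01, -0.09 and -0.04, and MT-CYB of complex III and MT-ATP6 of complex V had -0.12 and -0.15.

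Exceptions depended on the setting. MT-ND1 was called higher in the average with no filter, with GC content removed, with GC content removed and the replicate block, and without the first shWDR5 library of BrM (0.18, 0.18, 0.18 and 0.19). MT-ATP8 was called lower in BoM with no filter (-0.62), with the replicate block (-0.89), with GC content removed and the replicate block (-0.97) and without the first shWDR5 library of BoM (-1.27), and lower in the average with no filter (-0.22). MT-ATP8 was at 413, 421 and 417 CPM in BoM shCtrl and at 462, 251 and 95 CPM in BoM shWDR5, so its groups overlapped and shWDR5 replicate 3 was the lowest. Nuclear copies of mitochondrial genes share sequence with these members, 49.5% of the 50-base stretches for MT-CO1, 46.7% for MT-ATP6 and 43.6% for MT-ND2, and the annotated copies held counts equal to 0.917% to 1.90% of those of the 13 genes.

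In these libraries of polyadenylated RNA, the counts of the ribosomal RNA genes of the same mitochondrial DNA did rise. They belong to a list of related genes that the symbols above do not cover. MT-RNR2, the large ribosomal RNA, was at 4598, 4312 and 3916 CPM in LM2 shCtrl and at 5188, 5749 and 5929.9 CPM in LM2 shWDR5. It was at 4415, 3760.3 and 4103 CPM against 5621, 6143 and 5998 CPM in BrM, and at 3617, 3657 and 4415 CPM against 6254, 6225 and 5735 CPM in BoM. In each line all shWDR5 libraries lay above all shCtrl libraries. It rose by 0.40 ± 0.10 in LM2, 0.53 ± 0.10 in BrM and 0.64 ± 0.10 in BoM (SE, adjusted p = 0.0178, 0.00185 and 0.000242 by edgeR), and by 0.52 ± 0.05 in the average (adjusted p = 1.94e-06 by edgeR). The calls in BrM and BoM held in each of 18 fits with 1 library removed, and that in LM2 in 14 of them. The LM2 call was lost without the second or the third shCtrl library or the second or the third shWDR5 library of LM2, with 0.34 to 0.40, with the lines fitted alone (0.41) and without the shWDR5 replicate 3 libraries of LM2 and BoM (0.36).

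MT-RNR1, the small ribosomal RNA, had an average of 0.49 ± 0.14 (SE, adjusted p = 0.0113 by edgeR). The average was 0.32 ± 0.09 without the third shWDR5 library of BoM and 0.28 ± 0.08 without the shWDR5 replicate 3 libraries of LM2 and BoM, and it was called in both. It was at 620.4, 752 and 845 CPM in BoM shCtrl against 944, 1030.1 and 2217 CPM in BoM shWDR5, and it was called in BoM (0.92 ± 0.24, adjusted p = 0.0157 by edgeR) and not in LM2 (0.36 ± 0.24) or BrM (0.20 ± 0.24). Without the third shWDR5 library of BoM it was 0.42 in that line and not called, and without the first shCtrl library of BoM it was 0.81 and not called. As the libraries were made from polyadenylated RNA, the counts of both genes are of the RNA kept by that selection, and the amount of ribosomal RNA was not measured. The share of their sequence in nuclear copies was not computed.

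**Figure D4:**
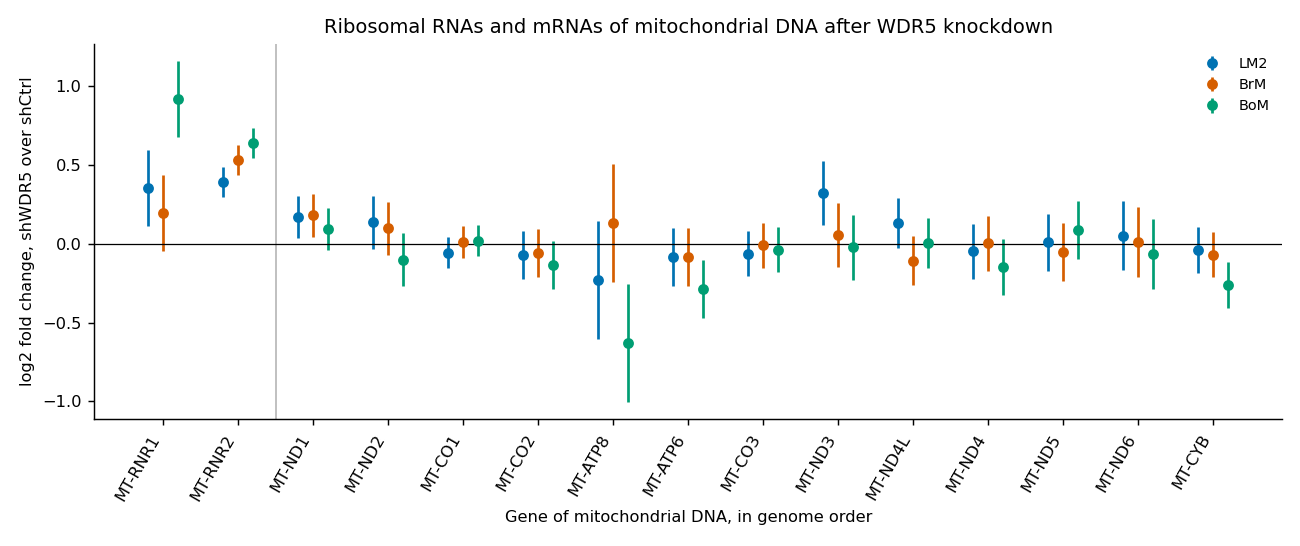
Log2 fold change of shWDR5 over shCtrl in each line (y axis, bars are SE) for the ribosomal RNA genes MT-RNR1 and MT-RNR2 and the 13 mitochondrially encoded members in genome order (x axis). MT-RNR2 lies between 0.40 and 0.64 in the lines, and the mRNA members lie between -0.63 and 0.32.

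The shCtrl libraries were then compared between the lines, to ask how the metastatic derivatives differ in these genes before WDR5 is reduced. Between BoM and LM2, 17 members were higher in BoM and 6 lower, 27.1% of 85, whereas 51.8% of all tested genes were called (26% higher, 25.8% lower). Between BrM and LM2, 13 were higher in BrM and 7 lower, 23.5% against 47.6% (24.2% higher, 23.5% lower). Between BoM and BrM, 9 were higher in BoM and 5 lower, 16.5% against 37.7% (17.9% higher, 19.8% lower). In each pair of lines the share of members called lay below that of all tested genes. The larger within-group spread of the members also makes calls less likely. With GC content removed the split of members was 14 and 9 for BoM against LM2 and 10 and 10 for BrM against LM2. The shares of all tested genes under that setting are not given. These 3 comparisons share their control libraries.

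NDUFA4, the complex IV subunit gene, had the largest excess of BoM over LM2 among the members. It was at 142, 176 and 174 CPM in BoM, at 115, 113 and 111 CPM in BrM and at 99.7, 77.1 and 73.5 CPM in LM2, with no overlap between the lines. BoM exceeded LM2 by a log2 difference of 0.98 ± 0.18 (SE, adjusted p = 0.000192 by edgeR) and BrM by 0.54 ± 0.18 (adjusted p = 0.0235 by edgeR). SDHB, the iron-sulfur subunit gene of complex II, was at 140.0, 153 and 144 CPM in BoM, at 84.5, 91.0 and 85.3 CPM in BrM and at 86.2, 81.2 and 94.7 CPM in LM2. BoM stood above both, by 0.74 ± 0.10 against LM2 and 0.75 ± 0.10 against BrM, and BrM and LM2 overlapped. COX4I1, a nuclear subunit gene of cytochrome c oxidase, showed the same order, at 283, 357 and 324 CPM in BoM, 187, 206 and 181 CPM in BrM and 193, 196 and 212 CPM in LM2, with BoM above BrM by 0.75 ± 0.14.

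NDUFB11, a membrane arm gene of complex I on the X chromosome, was highest in LM2. It was at 68.9, 78.0 and 79.5 CPM there, at 39.0, 44.2 and 36.8 CPM in BrM and at 36.9, 45.0 and 37.4 CPM in BoM. The log2 difference from LM2 was -0.92 ± 0.15 (SE) for both lines, and BrM and BoM overlapped. NDUFA8 was at 70.1, 65.1 and 67.3 CPM in LM2, at 43.0, 53.2 and 53.5 CPM in BoM and at 42.5, 43.0 and 41.7 CPM in BrM, which was lower than LM2 by -0.67 ± 0.14. NDUFC2 was lowest in BoM, at 7.45, 8.44 and 10.3 CPM against 13.4, 13.7 and 14.3 CPM in BrM and 17.6, 14.4 and 14.6 CPM in LM2, and lower than BrM by -0.67 ± 0.14. It shares exons with the readthrough gene NDUFC2-KCTD14.

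BrM had the highest levels of NDUFB9, at 47.4, 50.9 and 37.5 CPM against 25.2, 23.9 and 25 CPM in LM2, a log2 difference of 0.87 ± 0.13 (SE). It also had the highest levels of ATP5MC3, a c ring gene, at 244, 257 and 260.3 CPM against 159.9, 186 and 187 CPM in BoM, which was lower by -0.51 ± 0.14. COX5B was higher in BrM than in LM2 by 0.73 ± 0.21, and COX6A1 was higher in BrM and in BoM than in LM2 by 0.65 ± 0.24 and 0.68 ± 0.24. COX6A1 overlaps a neighbouring gene and has processed copies (47.1% of its 50-base stretches lie in other genes), and each of its calls was lost in 4 of 18 fits with 1 library removed.

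NDUFS7 and ATP5F1D were lower in BoM but varied widely within groups. NDUFS7, a core iron-sulfur subunit gene of complex I, was at 0.431, 1.10 and 0.403 CPM in BoM and at 1.36, 2.19 and 3.16 CPM in LM2, a log2 difference of -1.78 ± 0.54 (SE). The filter keeps a gene on its highest library, which for NDUFS7 was LM2 shWDR5 replicate 3 at 4.62 CPM. Every BoM library was at 1.10 CPM or below. NDUFS7 was thus tested through the line in which it is higher, so this difference is no independent support. Exons on the opposite strand cover 51.3% of its transcript, so its reads may include those of another gene. ATP5F1D was at 7.48, 14.9 and 6.70 CPM in BoM and at 11.4, 28.2 and 36.4 CPM in LM2, with -1.38 ± 0.44, and -1.16 ± 0.44 against BrM. NDUFS7 lost its call without the first BoM or the third LM2 shCtrl library, and ATP5F1D against LM2 without the first BoM library, the third BoM or the third LM2 shCtrl library. These are 2 of the 4 tested nuclear members with a GC content of 60% or more, the others being NDUFA11 and NDUFB7. The median within-group SD of log2 CPM was 0.667 for these 4, 0.217 for the other 68 nuclear members and 0.171 for all tested genes. Across the 72 nuclear members the within-group SD and GC content had a Pearson's r of 0.58 and a Spearman's rho of 0.39, which is across genes measured in the same libraries.

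**Figure D5:**
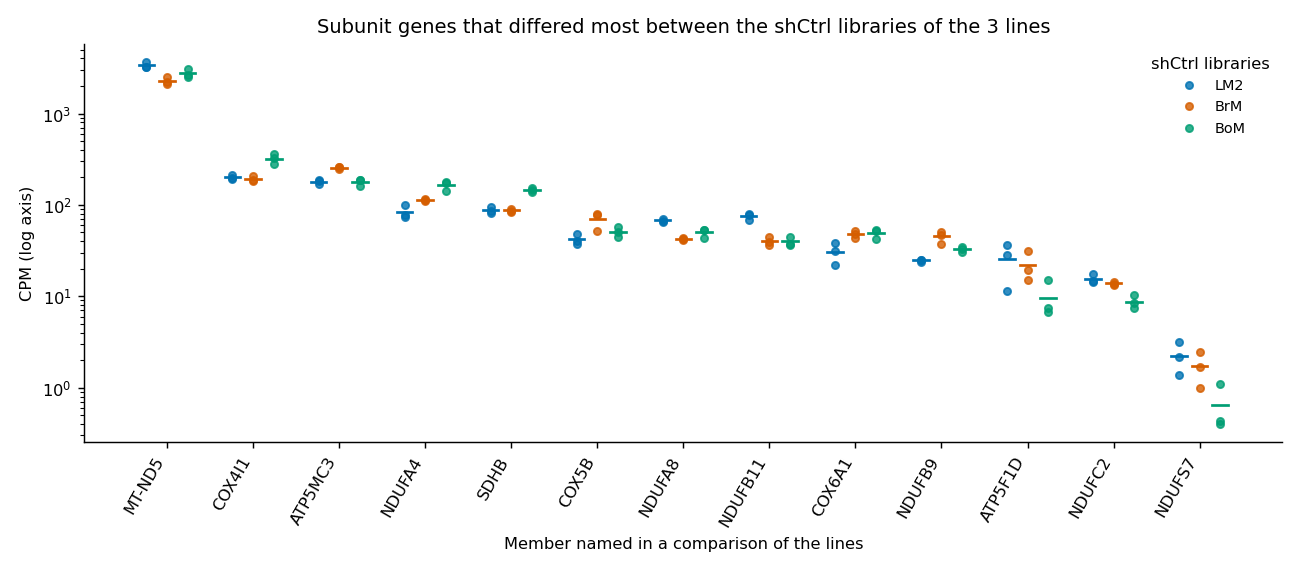
CPM on a log axis (y axis) in each shCtrl library of LM2, BrM and BoM for the 13 members named in a comparison of the lines (x axis), with bars at the group means. NDUFA4, SDHB and COX4I1 are highest in BoM, NDUFB9 and ATP5MC3 in BrM, and NDUFA8 and NDUFB11 in LM2.

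The mitochondrial mRNAs differed between the lines in a few genes. MT-ND1 was at 1418, 1629 and 1582 CPM in LM2, at 2092, 1919 and 1873 CPM in BrM and at 1848, 2212 and 2639 CPM in BoM. BoM was above LM2 by a log2 difference of 0.53 ± 0.14 (SE, adjusted p = 0.00340 by edgeR) and BrM by 0.35 ± 0.14 (adjusted p = 0.0449 by edgeR), the latter lost with GC content removed and in 9 of 18 fits with 1 library removed. MT-CO2 was higher in BoM than in LM2 by 0.58 ± 0.15 (adjusted p = 0.00386 by edgeR). MT-CYB was at 1941, 1591 and 1677 CPM in BrM and at 2261, 2515 and 2559 CPM in LM2, and lower by -0.49 ± 0.14, and MT-ND5 was lower in BrM than in LM2 by -0.57 ± 0.18.

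MT-CYB, MT-ND2 and MT-ND4 were higher in BoM than in BrM, by 0.40 ± 0.14, 0.51 ± 0.17 and 0.47 ± 0.18 (SE). The BoM libraries were spread widely in these genes. MT-ND2 was at 2805, 4005 and 4849.5 CPM in BoM against 2832, 2692 and 2677 CPM in BrM, so that the first BoM library lay among those of BrM. Without the third BoM shCtrl library the median of the mitochondrially encoded members fell from 0.34 to 0.22 for BoM against BrM and from 0.15 to 0.02 for BoM against LM2.

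The numbers of members called between the lines moved when single libraries were left out. The shares of all tested genes called in those fits are not given, so these counts are not read against a background. For BoM against LM2, 9 members were higher without the second BoM, the third BoM or the second LM2 shCtrl library, and 3 were lower without the first BoM library. For BrM against LM2, 5 to 8 were higher when the second LM2, the third LM2 shCtrl library or any BrM shCtrl library was left out. For BoM against BrM, 3 to 5 were higher when the second BoM, the third BoM or any BrM shCtrl library was left out, 3 were lower without the first BoM library and 2 without the second BrM library. The calls of MT-ND5 (BrM against LM2) and of NDUFA4, MT-ND2, MT-ND4, MT-CYB and ATP5F1D (BoM against BrM) were each lost in 3 to 10 of the fits with 1 library removed.

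The genes that build and regulate the complexes were taken from lists of known factors. Of the 14 complex I assembly factors tested, 3 rose and 3 fell in the average, with a median of -0.02. ACAD9, NDUFAF2 and TMEM126B rose by 0.20, 0.22 and 0.20, and NUBPL, which supplies iron-sulfur clusters to complex I, fell by 0.46 on the log2 scale (SE 0.06, adjusted p = 2.89e-05 by edgeR). Of the 29 tested assembly factors of complexes II to V, 7 rose and 4 fell, with a median of -0.06, among them SURF1 of complex IV assembly at 0.30 ± 0.07 and ATPAF2 of complex V assembly at -0.35 ± 0.09. Of 26 genes of mitochondrial DNA replication, transcription and RNA processing, 7 rose and 2 fell, with a median of 0.06. LRPPRC and SLIRP, partners that stabilize mitochondrial mRNAs, had 0.33 ± 0.06 and 0.35 ± 0.10, the helicase gene TWNK had 0.31 ± 0.06, the polymerase gene POLG had 0.30 ± 0.08 and the packaging factor gene TFAM had 0.16 ± 0.06. SLIRP was highest in BoM shWDR5 replicate 3, at 127 CPM, and its average includes that library. FASTKD1 was lower, at 14.4, 13.1 and 13.0 CPM in LM2 shCtrl against 10.6, 10.2 and 8.67 CPM in LM2 shWDR5. MTERF2 was also lower there, at 5.22, 5.88 and 6.45 CPM against 3.80, 4.48 and 4.28 CPM. Of the 10 nuclear regulators of respiratory genes, GABPB1 and GABPB2, partners of GABPA, rose by 0.18 and 0.30, and none fell. These counts stand beside the 15.6% higher and 19.9% lower among all tested genes.

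Of the 16 genes of the respiratory chain and the mitochondrial ribosomal RNAs that the symbol rule does not cover, 10 passed the filter, 4 rose in the average and 1 fell. Besides MT-RNR1 and MT-RNR2, the genes that rose were CYC1, which encodes cytochrome c1 of complex III, and CYCS, which encodes the electron carrier cytochrome c. CYCS was at 254, 193 and 225 CPM in LM2 shCtrl against 263, 265 and 274 CPM in LM2 shWDR5, at 282, 266 and 313 CPM against 427, 290.0 and 288 CPM in BrM, and at 354, 332 and 407 CPM against 421, 488 and 615 CPM in BoM, and its average was 0.32 ± 0.09 (SE, adjusted p = 0.0104 by edgeR). CYC1 had 0.31 ± 0.10 (SE, adjusted p = 0.0189 by edgeR). Among the BoM libraries both genes were highest in shWDR5 replicate 3, where CYC1 was at 344 CPM, and both averages include that library. The gene that fell was COX7B2, a testis-associated isoform gene of complex IV. It was at 36.4, 38.5 and 39.3 CPM in BoM shCtrl against 20.9, 26.2 and 35.1 CPM in BoM shWDR5, at 3.51, 3.70 and 3.70 CPM against 2.40, 2.06 and 2.20 CPM in BrM, and at 0.567, 0.187 and 0.0163 CPM against 0.0745, 0.0303 and 0 CPM in LM2. It was not called in any single line, with log2 fold changes of -0.48 ± 0.30 (SE) in BoM, -0.72 ± 0.36 in BrM and -1.84 ± 1.04 in LM2, and its average call includes the LM2 libraries, in which it was nearly absent. Between the shCtrl libraries it was higher in BoM than in BrM by a log2 difference of 3.39.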

How the data were processed

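RNA of 18 libraries was sequenced from polyadenylated RNA. The authors aligned reads to hg38 with STAR and deposited raw counts for 58815 genes; STAR 2.7.0 is named in the submitters' processing notes, and the strand setting of counting is not given in the sources used here. A further deposited table of the authors' fold changes and p-values was not used. No column was left unmapped (0), and the table holds 0 spike-in rows, so scaling by spike-in was not possible. Libraries were grouped by their titles. The source labels name another line for most libraries and were not used, and the line called BrM in titles is BrM2 in another label and BrM3 in the paper. Control columns are named "ad" and were taken as shCtrl, since the series has 2 hairpins.

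Counts were fitted with edgeR 4.0.16 (R 4.3.3, TMM scaling, quasi-likelihood, 6 groups, 12 residual degrees of freedom), with Benjamini-Hochberg adjustment over 12095 genes and a threshold of 0.05. Values are given as CPM computed here. The genes passed a recomputed Jaccard filter (100 thresholds from 1 to 200 on the highest normalized count, chosen at 145, mean index 0.970). The constant added before log2 for the within-group SD was 0.1 CPM. Alternatives were DESeq2 1.42.0, filterByExpr, no filter, a replicate block, lines fitted alone, GC content removed (loess span 0.5), mitochondrial genes out of library sizes, and leaving out each library. The fits were tested on simulated data. Coordinates and exon overlap come from GENCODE 44, and promoters from RefSeq.

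The members, gene lists and tests were chosen with earlier results of these data known. Named genes are WDR5, every mitochondrially encoded member, the 10 nuclear members called in each direction with the smallest p in the average, the 3 called members with the largest change in each direction between shCtrl lines, the 2 with the smallest p for each difference between lines, and members that failed the filter. Total counts bound the precision, and the 95% Wilson interval of a library's mitochondrial share is at most 0.0215 percentage points wide, for counting error only.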

Additional observations from a re-analysis of the deposited data

How the results depend on the processing

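The counts of members called after WDR5 knockdown in single lines were small and moved with the processing, and the causes were not tested. The share of all tested genes called under each setting is not given beside these counts. They show how the calls moved and are not read against a background. With DESeq2, 2 members were higher in LM2, 3 higher and 1 lower in BrM, and 3 higher in BoM. With no filter, 2 were higher in LM2 and 3 in BoM, 12 were lower in BoM than in LM2 and 12 lower in BoM than in BrM. With filterByExpr, 0 were higher and 1 lower in BoM. With the lines fitted alone, 2 were higher and 1 lower in BrM and 0 higher and 0 lower in BoM. With GC content removed, 3 were higher and 1 lower in LM2, 5 higher and 1 lower in BrM, and 6 higher in BoM. With the replicate block, 2 were higher and 1 lower in LM2, 2 higher and 2 lower in BrM, 5 higher in BoM, 9 lower in BoM than in BrM, and 14 higher and 3 lower in the average. Same-numbered shCtrl and shWDR5 libraries of a line correlated between -0.18 and 0.73 in their deviations from the group means. Differently numbered libraries correlated between -0.63 and 0.52. Not every library correlated best with its own number, and the numbers were not taken as pairs in the main fit, which thus ignores what same-numbered libraries share. In LM2, shWDR5 replicate 3 correlated at 0.73 with shCtrl replicate 3, which was kept where the former was left out. Chosen after seeing the data, GC content removed with the replicate block gave 8 higher and 1 lower in LM2, 8 and 3 in BrM, 9 and 4 in BoM, and 23 and 5 in the average. Leaving out shWDR5 replicate 3 of LM2 and BoM, also chosen after seeing the data, gave 3 higher and 1 lower in BrM, 0 higher in BoM, and 8 higher and 7 lower in the average. With each library left out in turn, members called ranged from 8 to 17 higher and 2 to 4 lower in the average, 0 to 2 higher in LM2, 0 to 2 higher and 0 to 1 lower in BrM, 0 to 9 higher and 0 to 4 lower in BoM, 9 to 20 higher and 3 to 8 lower for BoM against LM2, 5 to 15 and 5 to 9 for BrM against LM2, 3 to 13 and 2 to 7 for BoM against BrM, and 0 for each difference between lines. No called gene changed direction under these alternatives. Depth limits NDUFS7 most among the tested members named, at 0.403 to 3.16 CPM in the shCtrl libraries.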
